A study of Mus musculus with 6 samples.

Results

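Transcription factors that set monocyte and macrophage fate were compared between monocytes of BAFF-overexpressing and control melanomas. The set has 9 genes, Spi1, Irf8, Irf4, Cebpa, Cebpb, Klf4, Maf, Zeb2 and Id3, named by symbol among the 18341 genes of the deposited table, and all 9 were found. Of the 9 factors 2 passed the test, a share near the 17.1% of all genes that did. Zeb2 transcripts were higher and Maf transcripts lower in BAFF tumour monocytes, while no difference was detected in Irf8 or Irf4, and Spi1, Cebpa, Cebpb, Klf4 and Id3 stood higher without passing the test. The calls of Zeb2 and Maf were both lost on the deposited scale and in most fits that dropped a library.

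The cells came from C57BL/6 mice carrying tumours under the skin, 13 days after injection of tumour cells. In the BAFF tumour group (3 libraries) the injected cells overexpressed BAFF, the B cell activating factor, a cytokine of the tumour necrosis factor family. In the control tumour group (3 libraries) control cells had been injected. The sample labels name B16.F10, a pigmented mouse melanoma line, as the source, whereas the study design names sorted monocytes, which was followed here. Whether each library is 1 mouse or a pool of mice, and whether the overexpressing line is 1 clone, is not stated in the labels, so p-values measure only the spread between these samples, which may be technical.

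In blood cell formation, the ETS factor PU.1 (Spi1) opens myeloid enhancers together with C/EBPalpha (Cebpa) and commits progenitors to the myeloid lineages. IRF8 then favours monocytes and dendritic cells over granulocytes, KLF4 is needed for inflammatory monocytes, and C/EBPbeta (Cebpb) for the survival of patrolling monocytes and for emergency myelopoiesis. As monocytes become macrophages, MAF restrains proliferation and switches on genes of resident macrophages, and ZEB2 and ID3 maintain tissue identity, best known from Kupffer cells of the liver. IRF4 acts in alternatively activated macrophages, dendritic cells and plasma cells.

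Levels are given in CPM, which relates a gene's reads to the total of its library, and in rescaled CPM, which is the deposited CPM divided by a median-of-ratios size factor. The rescaling was used because the listed genes held 61.1% to 66.1% of the total in BAFF tumour libraries and 39.8% to 65.6% in control tumour libraries, which moves all genes of a library together. The median log2 fold change over the 12824 tested genes was 0.01 with the rescaling and 0.23 without it. One CPM stood for 9.64 to 27.6 estimated reads in BAFF tumour libraries and for 4.72 to 27.3 in control tumour libraries, so control tumour 3 was the shallowest. CT010467.1, a ribosomal RNA gene, took 693 to 5880 CPM in BAFF tumour libraries and at 299, 27017 and 43052 CPM in control tumour libraries 1, 2 and 3. All 13 monocyte and macrophage markers were found, but so were all 14 melanoma markers, so finding them does not check the label. The most abundant monocyte and macrophage markers were Lyz2 (lysozyme), Cd14 and Itgam (CD11b). They averaged 4864 ± 405, 1215 ± 212 and 787 ± 96.8 rescaled CPM in BAFF tumours. In control tumours they averaged 3962 ± 857, 773 ± 54.98 and 637 ± 64.5 (SD, n = 3 each).

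Upstream sequence is shown for 3 of the factors, namely Zeb2, which passed the test, and the paralogues Cebpb and Cebpa, whose sequences differ widely in base composition. Each run is the 250 bases before a RefSeq transcription start on GRCm38.p6, from 5′ to 3′ on the gene's strand. Zeb2 has 4 starts in RefSeq, which gene-level values cannot tell apart, and the one farthest upstream is printed, at chr2:45117443-45117692 on the minus strand. The Cebpb window lies at chr2:167688665-167688914 and the Cebpa window at chr7:35119043-35119292, both on the plus strand. Capitals mark letters that match 1 of 4 motifs on either strand, which are AGGAAG (PU.1 core), TTNCNNAA (C/EBP), a pair of GAAA repeats with any 2 bases between them (IRF) and TGACG (core of a cyclic AMP response element).
Zeb2: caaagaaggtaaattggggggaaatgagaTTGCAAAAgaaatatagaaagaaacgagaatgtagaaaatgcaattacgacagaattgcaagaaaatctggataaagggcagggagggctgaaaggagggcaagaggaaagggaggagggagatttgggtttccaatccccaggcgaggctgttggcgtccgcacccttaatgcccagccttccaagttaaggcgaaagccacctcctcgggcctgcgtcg
Cebpb: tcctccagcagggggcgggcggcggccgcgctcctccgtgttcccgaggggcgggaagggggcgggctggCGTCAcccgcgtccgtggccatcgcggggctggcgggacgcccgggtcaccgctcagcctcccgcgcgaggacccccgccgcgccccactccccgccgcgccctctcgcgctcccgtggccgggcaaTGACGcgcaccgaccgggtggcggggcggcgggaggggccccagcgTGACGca
Cebpa: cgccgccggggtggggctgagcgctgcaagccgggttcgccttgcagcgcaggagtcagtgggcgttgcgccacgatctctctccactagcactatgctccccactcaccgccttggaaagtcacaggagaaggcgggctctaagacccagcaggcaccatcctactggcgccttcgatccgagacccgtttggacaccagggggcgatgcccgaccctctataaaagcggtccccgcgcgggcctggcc

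The printed Zeb2 window held 1 match to TTNCNNAA, a motif present in 36.8% of 32851 promoter windows of the same length. The windows of the other Zeb2 starts, 2, 3 and 4, held none, but each held 1 match to AGGAAG, and those of starts 2 and 3, which overlap, 1 match to TGACG. The Cebpb window held 3 matches to TGACG, which 17.8% of windows hold, and no match to the other three. The Cebpa window matched none of the 4 motifs. Base composition set the windows apart, with 49.6% G or C before Zeb2, 81.6% before Cebpb and 66.4% before Cebpa, against a median of 52.4% over all windows. Promoters were found for 7 of the 9 factors, and those of Spi1 and Maf are not shown. AGGAAG is found in 29.5% of all windows and the IRF repeat in 2.98%. Of 4 further motifs searched on both strands and not capitalised, CCCCNCCC (KLF, in 30.8% of windows) matched the Cebpb and Cebpa windows 1 time each, the printed Zeb2 window 0 times and those of Zeb2 starts 2, 3 and 4 17, 17 and 3 times, overlapping matches included. GGGA and CC with any 4 bases between them (NF-kB, 17.6%) matched the Cebpb window 1 time, overlapping its KLF match. CACCTG (ZEB, 17.2%) and TGCTGA (MAF, 16.1%) matched none of the 3 printed windows. A match describes letters only.

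Per kilobase of transcript, taken from the longest principal transcript in GENCODE M21, Cebpb and Zeb2 had the highest group means of the 9 factors and Irf4 the lowest. In BAFF tumours Cebpb stood at 89.8 ± 8.5 and Zeb2 at 68.6 ± 4.8 rescaled CPM per kb, without overlap between them (SD, n = 3). In control tumours Cebpb stood at 60.9 ± 22 and Zeb2 at 53.04 ± 3.9, and these overlapped. The control tumour values of Cebpb, 39.6 to 83.6, also reached into those of Spi1 (37.1 to 40.7) and Irf8 (39.9 to 43.2). Spi1 and Irf8 followed, at 44.2 ± 2.2 and 39.2 ± 5.25 per kb in BAFF tumours and 38.8 ± 1.8 and 41.2 ± 1.8 in control tumours, and they overlapped in both groups. Klf4 (29.96 ± 6.8), Maf (24.5 ± 1.8) and Cebpa (24.5 ± 1.3) could not be ordered beyond their spread in BAFF tumours. Among control tumours Maf stood clear of both at 32.01 ± 3.6, against 21.03 ± 4.2 for Klf4 and 20.2 ± 0.9 for Cebpa. Id3 (6.59 ± 1.4 in BAFF tumours and 3.39 ± 2.2 in control tumours) and Irf4 (1.67 ± 0.22 in BAFF tumours and 1.74 ± 0.35 in control tumours) were the scarcest, and overlapped in control tumours only.

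Of the 9 factors, all of which exceeded the minimum mean of 1 CPM, 1 rose (Zeb2), 1 fell (Maf) and 7 did not pass (limma-trend on log2 of rescaled CPM plus 1, Benjamini-Hochberg adjusted p under 0.05 over all 12824 genes tested). Of all genes tested, 17.1% were called, 7.18% as higher and 9.91% as lower, so the share of factors called is near the background. At an unadjusted p under 0.05 there were 6 factors, against 30.6% of all genes. The groups did not overlap for 4 factors, Spi1, Cebpa, Zeb2 and Maf, where the same held for 35.2% of all genes (17.3% higher and 17.8% lower). The median log2 fold change of the 9 was 0.28, beside 0.01 for all tested genes. On the deposited scale 5.31% of all genes were called (1.81% higher and 3.5% lower), and Id3 was the 1 factor among them. Where a fit without a library is reported, it was made on rescaled values unless the deposited scale is named. Since bulk RNA was measured, fewer cells of a type and less RNA per cell cannot be told apart.

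**Figure D1:**
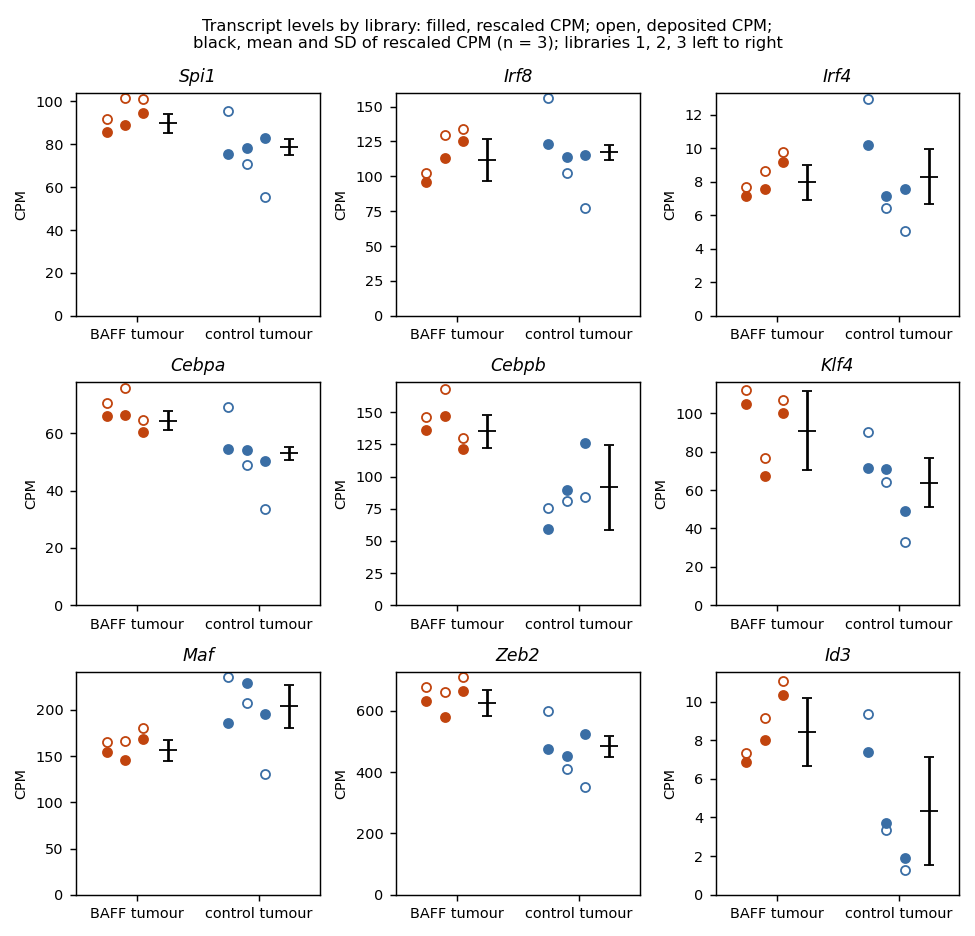
Level of each of the 9 factors in every library, with BAFF tumours on the left and control tumours on the right of each panel. The y axis is CPM, filled points are rescaled CPM, open points deposited CPM, and black marks the mean and SD of rescaled CPM (n = 3). Zeb2 lies at 579 to 665 rescaled CPM in BAFF tumours, above 454 to 523 in control tumours. Maf lies at 146 to 168 in BAFF tumours, below 186 to 229 in control tumours.

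Zeb2 (chr2:44983632-45117395, minus strand, GENCODE M21) encodes a zinc finger repressor that keeps macrophage identity in tissues and is also used by melanocytes. Its deposited values were 677, 661 and 710 CPM in BAFF tumours 1, 2 and 3, against 601, 410 and 351 CPM in control tumours 1, 2 and 3. After rescaling they were 633, 579 and 665 CPM in BAFF tumours, against 474, 454 and 523 CPM in control tumours. Every BAFF tumour library lay above every control tumour library on both scales. The log2 fold change was 0.37 ± 0.11 (SE; 95% confidence interval 0.13 to 0.61; limma adjusted p = 0.0354), a 1.29-fold difference of means. Zeb2 no longer passed once BAFF tumour 1, 2 or 3 or control tumour 1 or 2 was dropped (adjusted p = 0.1003, 0.0514, 0.0808, 0.0888 and 0.126), nor on the deposited scale (log2 0.62 ± 0.32, adjusted p = 0.324). Zeb2os, annotated opposite to Zeb2 and sharing 653 exonic bases with it, rose too (20.4 ± 2.2 rescaled CPM in BAFF tumours and 14.06 ± 0.97 in control tumours, log2 0.50 ± 0.13, adjusted p = 0.01704), though not on the deposited scale (adjusted p = 0.181). Zeb2os missed the threshold once BAFF tumour 1, BAFF tumour 2 or control tumour 1 was dropped (adjusted p = 0.0504, 0.0843 and 0.0546). Because the library kit does not mark strand, reads of Zeb2 and Zeb2os in the shared bases cannot be told apart. Zeb2os lies outside the naming rule and was picked with its values known.

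Maf (chr8:115682942-115707794, minus strand, GENCODE M21) encodes the large bZIP factor c-MAF, which drives genes of resident and interleukin 10 producing macrophages. Its deposited values were 165, 166 and 179.9 CPM in BAFF tumours, against 236, 207 and 131 CPM in control tumours, where the groups overlapped through control tumour 3. The rescaled values were 154, 146 and 168 CPM in BAFF tumours and 186, 229 and 195 CPM in control tumours, without overlap. The log2 fold change was -0.38 ± 0.11 (SE; 95% confidence interval -0.61 to -0.14; limma adjusted p = 0.0316). Maf no longer passed once BAFF tumour 1 or 2, or control tumour 2 or 3, was dropped (adjusted p = 0.09398, 0.123, 0.1199 and 0.0542), nor on the deposited scale, with -0.13 ± 0.32 (adjusted p = 0.855). In the deposited values without control tumour 1 the sign turned (log2 0.05, adjusted p = 0.8798). Gm15655, an antisense gene that is not among the listed genes, shares 440 exonic bases with Maf, and reads there cannot be assigned to a strand.

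The ratio of 2 transcripts within a library does not depend on how that library was scaled. Zeb2 CPM divided by Maf CPM gave 4.11, 3.98 and 3.95 in BAFF tumours, against 2.55, 1.98 and 2.68 in control tumours, a log2 difference of 0.75 without overlap. For this ratio the exact permutation test gave two-sided p = 0.1, the smallest that 3 libraries against 3 allow. After rescaling, Zeb2 lay higher and Maf lower without overlap, so their ratio could not overlap and this p was fixed by the choice of the pair. It adds nothing to the results of the single genes. The ratio belongs to 3 that were picked with the values known.

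Spi1, which encodes PU.1, varied little within either group. Its rescaled values were 85.7, 89.1 and 94.7 CPM in BAFF tumours, against 75.4, 78.3 and 82.8 CPM in control tumours, so the groups did not overlap. The difference did not pass the test (log2 0.19 ± 0.09, 95% confidence interval -0.02 to 0.39, adjusted p = 0.203). Deposited values were 91.6, 101.7 and 101.1 CPM in BAFF tumours and 95.5, 70.8 and 55.5 CPM in control tumours, which overlapped.

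No difference was detected in Irf8, the interferon regulatory factor of monocyte and dendritic cell commitment. It stood at 95.9, 113 and 126 rescaled CPM in BAFF tumours and at 123, 114 and 115 in control tumours, with the BAFF tumour values on both sides of the control ones. Its log2 fold change of -0.08 ± 0.11 did not pass (95% confidence interval -0.32 to 0.16, adjusted p = 0.688). The Spi1 to Irf8 ratio was 0.894, 0.786 and 0.753 in BAFF tumours and 0.612, 0.689 and 0.7198 in control tumours, without overlap (exact permutation p = 0.1).

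Irf4, the relative of Irf8 that works in alternative activation, was scarce. Rescaled values were 7.18, 7.56 and 9.15 CPM in BAFF tumours against 10.2, 7.14 and 7.58 CPM in control tumours, and the groups overlapped. Irf4 had a log2 fold change of -0.05 ± 0.17 (95% confidence interval -0.41 to 0.32, adjusted p = 0.887). The signs of Irf8 and Irf4 turned on the deposited scale (0.17 for each, adjusted p = 0.792), again without passing.

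Among the C/EBP genes, Cebpa, the factor of myeloid commitment, stood at 66.1, 66.3 and 60.5 rescaled CPM in BAFF tumours and 54.4, 54.2 and 50.2 in control tumours. The groups did not overlap, and the difference missed the threshold (log2 0.28 ± 0.095, 95% confidence interval 0.07 to 0.48, adjusted p = 0.0701). Deposited values were 70.7, 75.7 and 64.6 CPM in BAFF tumours and 68.97, 49.0 and 33.7 CPM in control tumours, which overlapped through control tumour 1 (log2 0.52, adjusted p = 0.421). A short antisense transcript, Gm45091, shares 51 exonic bases with Cebpa.

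Cebpb, the stress and inflammation induced member of the family, had deposited values of 146, 168 and 129.9 CPM in BAFF tumours against 75.5, 80.7 and 84.2 CPM in control tumours. On that scale every BAFF tumour library exceeded every control tumour library by a wide margin. After rescaling the values were 137, 147 and 122 CPM in BAFF tumours and 59.6, 89.3 and 126 CPM in control tumours, and control tumour 3 reached into the BAFF tumour range. Cebpb had a log2 fold change of 0.62 ± 0.20 (95% confidence interval 0.17 to 1.06, adjusted p = 0.0593), and 0.87 ± 0.32 on the deposited scale (adjusted p = 0.0944), so neither passed. Without control tumour 3 the rescaled difference was 0.87 and passed (adjusted p = 0.00476). Without control tumour 1 it fell to 0.34 (adjusted p = 0.156), and it missed without any other single library as well (0.0784 to 0.185). The Cebpb to Cebpa ratio was 2.06, 2.22 and 2.01 in BAFF tumours and 1.09, 1.65 and 2.50 in control tumours, which overlapped (exact permutation p = 0.4). Tmem189 on the other strand shares 312 exonic bases with Cebpb, and their reads there cannot be told apart.

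Klf4, a zinc finger factor of inflammatory monocytes that is also an early response gene, stood at 105, 67.1 and 100.2 rescaled CPM in BAFF tumours and 71.3, 70.8 and 49.0 in control tumours. BAFF tumour 2 lay among the control values and the other 2 libraries above them. Klf4 differed by 0.50 ± 0.18 on the log2 scale (95% confidence interval 0.11 to 0.89, adjusted p = 0.0805), and it passed without BAFF tumour 2 (log2 0.70, adjusted p = 0.0215). Without any other single library it missed (adjusted p = 0.0708 to 0.252), with the smallest difference, 0.32, without control tumour 3. A list of 18 dissociation and early response genes summed to 6692 to 7262 rescaled CPM in BAFF tumours and 5064 to 5901 in control tumours. Of these genes 5 were called as higher and 0 as lower, beside 7.18% and 9.91% of all genes. The part of this list in the Klf4 values was not tested.

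Id3, an inhibitor that binds E proteins and keeps them off DNA, was low and uneven. Its deposited values were 7.36, 9.17 and 11.1 CPM in BAFF tumours against 9.33, 3.37 and 1.27 CPM in control tumours, where 1.27 CPM stood for about 6 reads. Rescaled values were 6.89, 8.03 and 10.4 CPM in BAFF tumours and 7.36, 3.73 and 1.895 in control tumours, so control tumour 1 lay within the BAFF tumour range. The log2 fold change of 0.94 ± 0.31 missed the threshold (95% confidence interval 0.27 to 1.62, adjusted p = 0.0575). On the deposited scale Id3 passed (log2 1.11 ± 0.31, adjusted p = 0.01196) and lost the call without BAFF tumour 1, 2 or 3 or control tumour 2 or 3 (adjusted p at most 0.252). After rescaling Id3 passed without control tumour 1 (log2 1.32, adjusted p = 0.00407) and missed without any other single library (0.0763 to 0.168). Without control tumours 2 and 3 its log2 fold change was 0.15. Id1, which encodes the same kind of inhibitor, rose with tighter values, at 8.73, 6.38 and 6.93 rescaled CPM in BAFF tumours and 2.83, 2.80 and 2.84 CPM in control tumours.

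**Figure D2:**
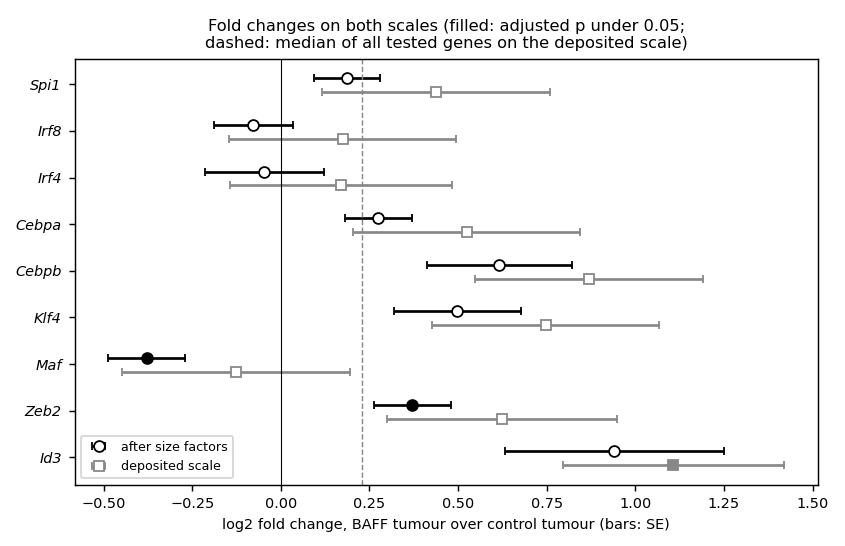
Log2 fold change of each factor, BAFF tumour over control tumour, after size factors (circles) and on the deposited scale (squares), with SE bars. Filled symbols passed the test, and the dashed line is the median of all tested genes on the deposited scale, 0.23. Zeb2 (0.37) and Maf (-0.38) are filled after size factors and Id3 (1.11) on the deposited scale.

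A further 69 transcription factors of the same lineages were examined, of which 68 were found and 65 tested. Of these 15 rose, 2 fell and 48 did not pass, with a median log2 fold change of 0.17, where 7.18% of all genes were called as higher and 9.91% as lower. On the deposited scale 4 of the 65 were higher and 1 lower, beside 1.81% and 3.5% of all genes. The 5 higher with the smallest adjusted p were Nr4a2, Hif1a, Ets2, Id1 and Ahr. Nr4a2, an orphan nuclear receptor of early response, averaged 147 ± 10.2 rescaled CPM in BAFF tumours and 72.3 ± 15.5 in control tumours (log2 1.03 ± 0.14, adjusted p = 0.000518). Hif1a, the hypoxia inducible factor, averaged 331 ± 25.7 in BAFF tumours and 199 ± 19.5 in control tumours (0.73 ± 0.11, adjusted p = 0.000794), and the ETS factor Ets2 354 ± 14.5 in BAFF tumours and 221 ± 20.4 in control tumours (0.68 ± 0.10, adjusted p = 0.000856). Id1 rose by 1.12 ± 0.17 (adjusted p = 0.000916), and Ahr, the aryl hydrocarbon receptor, averaged 59.3 ± 4.3 in BAFF tumours and 36.2 ± 3.9 in control tumours (0.70 ± 0.11, adjusted p = 0.00119).

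Both lower factors were helix-loop-helix genes. Bhlhe41, which encodes a repressor known from self-renewing alveolar macrophages, fell to 8.82, 7.78 and 6.66 rescaled CPM in BAFF tumours, against 25.8, 27.6 and 29.4 CPM in control tumours, with a wide gap between the groups (log2 -1.71 ± 0.13, adjusted p = 2.66e-05). Its paralogue Bhlhe40 rose to 265 ± 41.3 CPM in BAFF tumours, against 178 ± 14.4 CPM in control tumours (0.56 ± 0.12, adjusted p = 0.00781), and was picked with its values known. Mitf, which melanocytes and macrophages both use, averaged 64.01 ± 5.6 in BAFF tumours and 85.6 ± 10.7 in control tumours (-0.41 ± 0.12, adjusted p = 0.0305). Leaving out any 1 of the 6 libraries kept Nr4a2, Hif1a, Ets2, Id1, Ahr, Bhlhe41 and Bhlhe40 past the threshold. Mitf passed only without control tumour 2 (adjusted p = 0.01395, otherwise 0.0502 to 0.123), and on the deposited scale Ets2, Ahr, Bhlhe40 and Mitf missed the threshold (adjusted p = 0.0645, 0.0552, 0.133 and 0.811). With 1 library left out on the deposited scale, Id1 and Bhlhe41 passed in 5 fits of 6 each. Nr4a2 and Hif1a passed in 2 each, with adjusted p of up to 0.112 and 0.394.

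**Figure D3:**
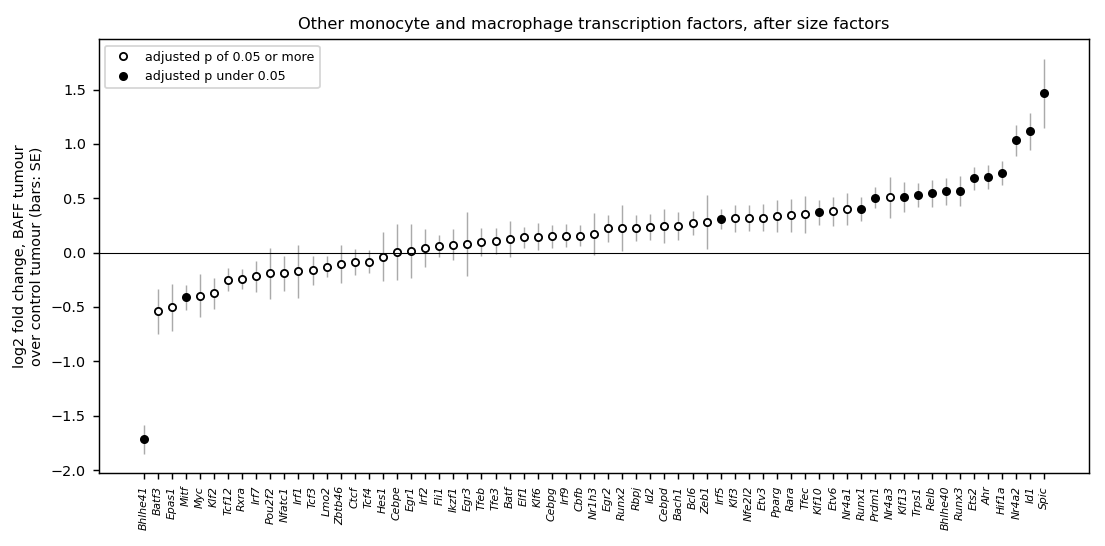
Log2 fold change, BAFF tumour over control tumour, of the 65 other factors tested, after size factors, ordered from lowest to highest with SE bars. Filled points passed the test, 15 above 0 and 2 below, from Bhlhe41 at -1.71 to Spic at 1.46.

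Genes that the factors are known to control were counted from fixed lists, chosen with earlier results of these data known, so that their direction is no independent evidence. Of 19 tested PU.1 target genes 6 rose, 0 fell and 13 did not pass, with a median log2 fold change of 0.30, where 7.18% of all genes were called as higher. On the deposited scale 1 PU.1 target gene was called as higher, beside 1.81% of all genes. Csf2rb, the shared beta chain of the GM-CSF and interleukin 3 receptors, rose most clearly (366 ± 34.9 rescaled CPM in BAFF tumours and 208 ± 6.7 in control tumours, log2 0.81 ± 0.10, adjusted p = 0.000321) and passed whichever of the 6 libraries was left out. Cd14 (0.64 ± 0.14) and the integrin beta gene Itgb2 (0.50 ± 0.11) rose as well, with adjusted p = 0.00948 and 0.009996. Both missed without BAFF tumour 2 (adjusted p = 0.0508 and 0.0514) and on the deposited scale (0.0886 and 0.189). With 1 library left out on the deposited scale, Csf2rb passed in 2 fits of 6, with adjusted p of up to 0.319.

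C/EBP target genes showed 6 of 20 higher, 0 lower and 14 that did not pass, with a median of 0.52, where 7.18% of all genes were called as higher. On the deposited scale 6 were higher and 0 lower as well, beside 1.81% of all genes called as higher. Chil3, the chitinase-like protein of recruited monocytes, averaged 274 ± 60.7 rescaled CPM in BAFF tumours and 106 ± 23.2 in control tumours (log2 1.37 ± 0.18, adjusted p = 0.000424). The neutrophil attracting chemokine gene Cxcl2 (0.77 ± 0.15, adjusted p = 0.00401) and the haptoglobin gene Hp (0.84 ± 0.18, adjusted p = 0.00761) rose too. All 3 passed on the deposited scale and, after rescaling, whichever library was left out. When libraries were left out on the deposited scale, Chil3 passed in 6 fits of 6 and Cxcl2 and Hp in 2 each, with adjusted p of up to 0.455 for Cxcl2 and 0.428 for Hp. Neutrophil markers, some of which are also C/EBP targets, summed to 200.4 to 301 rescaled CPM in BAFF tumours and 113 to 174 in control tumours, and 3 of 8 tested rose. Their part in the C/EBP list was not tested. Of 14 neutrophil markers 10 were found, and Csf3r, Mmp8 and Il1r2 were the most abundant. The granule gene Elane and the surface marker gene Ly6g were not analysed here, nor were Camp and Ngp. Mpo and Ltf, with means of 0.14 and 0.37 CPM over the libraries, fell under the filter.

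Of 14 Ly6C-low monocyte genes that need C/EBPbeta, 3 were higher, 1 was lower and 10 did not pass, beside 7.18% and 9.91% of all genes called as higher and lower. On the deposited scale 1 was higher and 0 lower, beside 1.81% and 3.5% of all genes. The apolipoprotein gene Apoc2 rose (16.9 ± 3.4 rescaled CPM in BAFF tumours and 9.47 ± 0.29 in control tumours, log2 0.76 ± 0.15, adjusted p = 0.00477), as did the adhesion receptor gene Adgre4 (0.68 ± 0.19, adjusted p = 0.0282). Cx3cr1, the fractalkine receptor, fell to 23.4 ± 2.3 in BAFF tumours, against 37.7 ± 10.4 in control tumours (-0.63 ± 0.18, adjusted p = 0.0291). Adgre4 missed when BAFF tumour 2 or 3 or control tumour 2 or 3 was left out (adjusted p = 0.0554 to 0.128), and Cx3cr1 passed only without control tumour 2 (otherwise 0.0539 to 0.098). On the deposited scale both missed (adjusted p = 0.0636 and 0.568).

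Of 20 genes downstream of IRF8 and IRF4, 2 rose, 0 fell and 18 did not pass, with a median of 0.10, so the share higher is near the 7.18% of all genes. On the deposited scale 3 were higher and 0 lower, beside 1.81% of all genes called as higher. Flt3, the receptor of a dendritic cell growth factor, averaged 3.72 ± 0.485 rescaled CPM in BAFF tumours and 1.61 ± 0.45 in control tumours (log2 0.87 ± 0.20, adjusted p = 0.01135). The lectin gene Cd209a averaged 17.1 ± 6.1 in BAFF tumours and 8.42 ± 2.6 in control tumours (0.92 ± 0.24, adjusted p = 0.0208). Flt3 missed without BAFF tumour 1 (adjusted p = 0.0533), and Cd209a when BAFF tumour 2 or 3 or control tumour 1 or 2 was left out (adjusted p = 0.0544 to 0.0757). Ctss, cathepsin S, did not pass (0.32 ± 0.12, adjusted p = 0.089). Dendritic cell markers as a list summed to 164 to 214 rescaled CPM in BAFF tumours and 196 to 213 in control tumours. Of 13 tested 2 were higher, the same Flt3 and Cd209a, and 0 lower. The median log2 fold change of that list was -0.08, with 7 of the 13 below 0.

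Resident macrophage genes were the list with the most lower members among the 6 lists described here, with 13 of 22 lower, 1 higher and 8 that did not pass, and a median of -0.80, where 9.91% of all genes were called as lower. On the deposited scale 6 were lower and 1 higher, with a median of -0.55, beside 3.5% of all genes called as lower. Their summed level was 3580 to 3855 rescaled CPM in BAFF tumours and 5323 to 6396 in control tumours, without overlap. Lyve1, the hyaluronan receptor of perivascular macrophages, fell to 1.67 ± 0.71 in BAFF tumours, against 43.5 ± 10.7 in control tumours (log2 -4.07 ± 0.21, adjusted p = 4.31e-06). The folate receptor gene Folr2 fell to 12.3 ± 1.99 in BAFF tumours, against 63.6 ± 8.6 in control tumours (-2.28 ± 0.14, adjusted p = 1.22e-05), and Gas6, a bridge to dying cells, to 23.2 ± 2.35 in BAFF tumours, against 80.7 ± 7.8 in control tumours (-1.76 ± 0.11, adjusted p = 1.22e-05). The 3 passed under all 27 other settings tried. The complement gene C1qa fell by 1.03 ± 0.11 (adjusted p = 9.72e-05), was picked with its values known, and missed on the deposited scale (adjusted p = 0.167). The 1 higher member was Slc40a1, the iron exporter ferroportin, with a log2 fold change of 0.78 ± 0.24 (adjusted p = 0.0409), which passed only without control tumour 1 when single libraries were left out (otherwise adjusted p = 0.0633 to 0.151).

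Kupffer cell genes that rest on ZEB2 and ID3 in the liver moved both ways, with 3 of 12 tested higher, 2 lower and 7 that did not pass. Counts of higher and lower were the same on the deposited scale. Over all genes 7.18% were called as higher and 9.91% as lower, and 1.81% and 3.5% on the deposited scale. The higher ones were Id1, Slc40a1 and Spic, and the lower ones Folr2 and Cd5l. Spic, the ETS factor of red pulp macrophages, picked with its values known, averaged 5.69 ± 2.4 rescaled CPM in BAFF tumours and 1.47 ± 1.1 in control tumours (log2 1.46 ± 0.32, adjusted p = 0.00781), and missed without BAFF tumour 2 (adjusted p = 0.05105). Cd5l, a macrophage secreted survival protein, averaged 1.69 ± 0.22 in BAFF tumours and 5.24 ± 1.97 in control tumours (-1.17 ± 0.23, adjusted p = 0.0043). Clec4f and Vsig4, which mark Kupffer cells, were not analysed here.

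**Figure D4:**
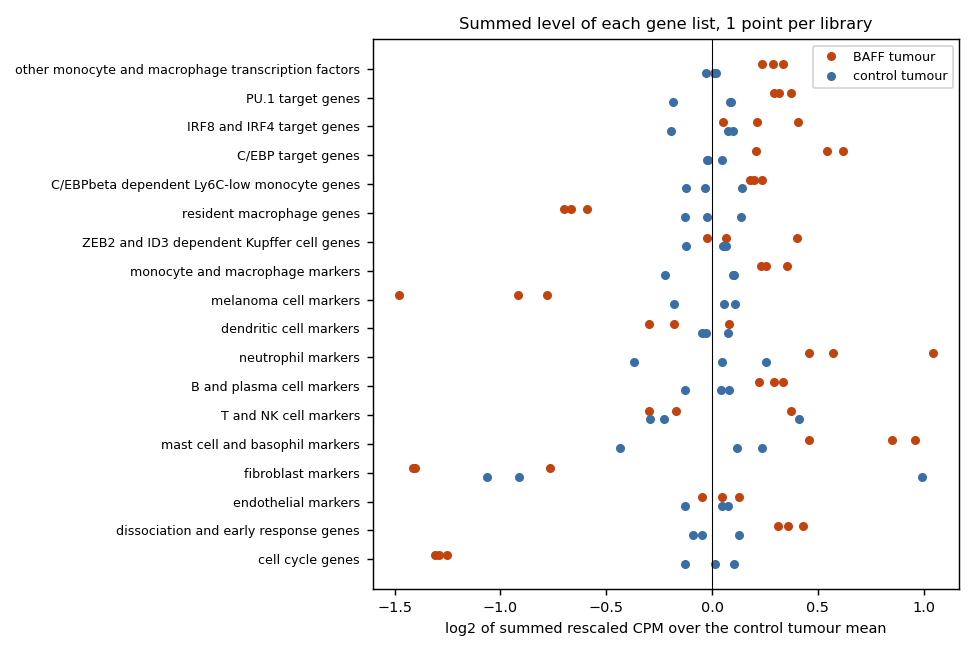
Summed rescaled CPM of each target, marker and technical list in every library, as log2 of the ratio to the control tumour mean, with BAFF tumour points above control tumour points for each list. Sums of resident macrophage genes, melanoma markers and cell cycle genes are lower in all 3 BAFF tumour libraries, and those of PU.1 targets (12575 to 13333 rescaled CPM in BAFF tumours, against 9038 to 10930 in control tumours) are higher.

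Several of the factors are also used by cells other than monocytes, and markers of some of those cells, though not of all, differed between the groups. The counts of markers called stand beside 7.18% of all genes called as higher and 9.91% as lower. Melanoma markers, a list that itself holds Mitf, are set beside Zeb2, which melanocytes also use. They summed to 379 to 616 rescaled CPM in BAFF tumours and 933 to 1138 in control tumours, and 12 of 14 fell, Mitf among them. The most abundant were Gpnmb, which macrophages also transcribe, Dct and Tyrp1. They averaged 319 ± 80.6, 43.7 ± 13.5 and 30.6 ± 10.5 in BAFF tumours, and 370.2 ± 28.9, 217 ± 29.1 and 129.8 ± 20.53 in control tumours. Cell cycle genes summed to 229 to 238 in BAFF tumours and 519.9 to 610.3 in control tumours, with 21 of 22 lower. B and plasma cell markers are set beside Irf4, Irf8 and Spi1, and were led by Xbp1, Sdc1 and Ighm. Their sum was 285 to 308 rescaled CPM in BAFF tumours and 224 to 259 in control tumours, higher without overlap. Of 7 tested, 2 were higher, Xbp1 and Sdc1, and 3 were lower. The 3 lower were Igkc, Jchain and Cd22 (limma adjusted p = 0.00746, 0.0298 and 0.0129), of which Cd22 missed on the deposited scale (0.613). They averaged 4.53 ± 1.63, 1.97 ± 1.41 and 10.3 ± 0.77 rescaled CPM in BAFF tumours. In control tumours they averaged 11.4 ± 3.48, 5.38 ± 1.81 and 15.7 ± 1.66. Cd79a, a defining B cell gene, stood near 0, at 0.124 ± 0.14 rescaled CPM in BAFF tumours and 0.196 ± 0.11 in control tumours. These 4 genes were picked with their values known. T and NK cell markers (19.8 to 31.5 rescaled CPM in BAFF tumours and 19.9 to 32.4 in control tumours) showed 0 of 9 higher or lower in limma. Fibroblast markers (45.9 to 71.95 in BAFF tumours and 58.6 to 244 in control tumours, the highest in control tumour 1) had 0 higher and 2 lower of 10, and endothelial markers (45.9 to 51.9 in BAFF tumours and 43.4 to 50.01 in control tumours) 2 higher and 1 lower of 5. Of 9 mast cell and basophil markers only 3 were found and 2 tested. Their sum was 21.6 to 30.6 in BAFF tumours and 11.6 to 18.5 in control tumours, most of it Hdc. Hdc averaged 24.8 ± 4.8 in BAFF tumours and 13.1 ± 3.4 in control tumours, and was the 1 called as higher (limma adjusted p = 0.008). Kit leaned lower without passing (1.89 ± 0.42 in BAFF tumours and 2.56 ± 0.39 in control tumours, log2 -0.31, adjusted p = 0.328). The part of these cells in the values of the 9 factors was not tested.

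Across the 6 libraries the genes whose rescaled log2 levels ran closest to Zeb2 were Gmeb2 (Pearson r = 0.998), Chd2 (0.993) and Cd177 (0.992), and those closest to Maf were Sdc3 (0.992), Cep152 (0.990) and Trp53bp1 (0.989). They were the highest of 9095 genes averaging at least 5 CPM, 87 of which exceeded r = 0.95 with Zeb2 and 39 with Maf. With 6 points that share their scaling, such values describe these libraries only. Cd177, a surface protein gene of neutrophils, was higher in BAFF tumours (log2 1.15 ± 0.19, adjusted p = 0.00161), and so was Chd2 (0.35 ± 0.10, adjusted p = 0.0379), while Gmeb2, Sdc3, Cep152 and Trp53bp1 did not pass.

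**Figure D5:**
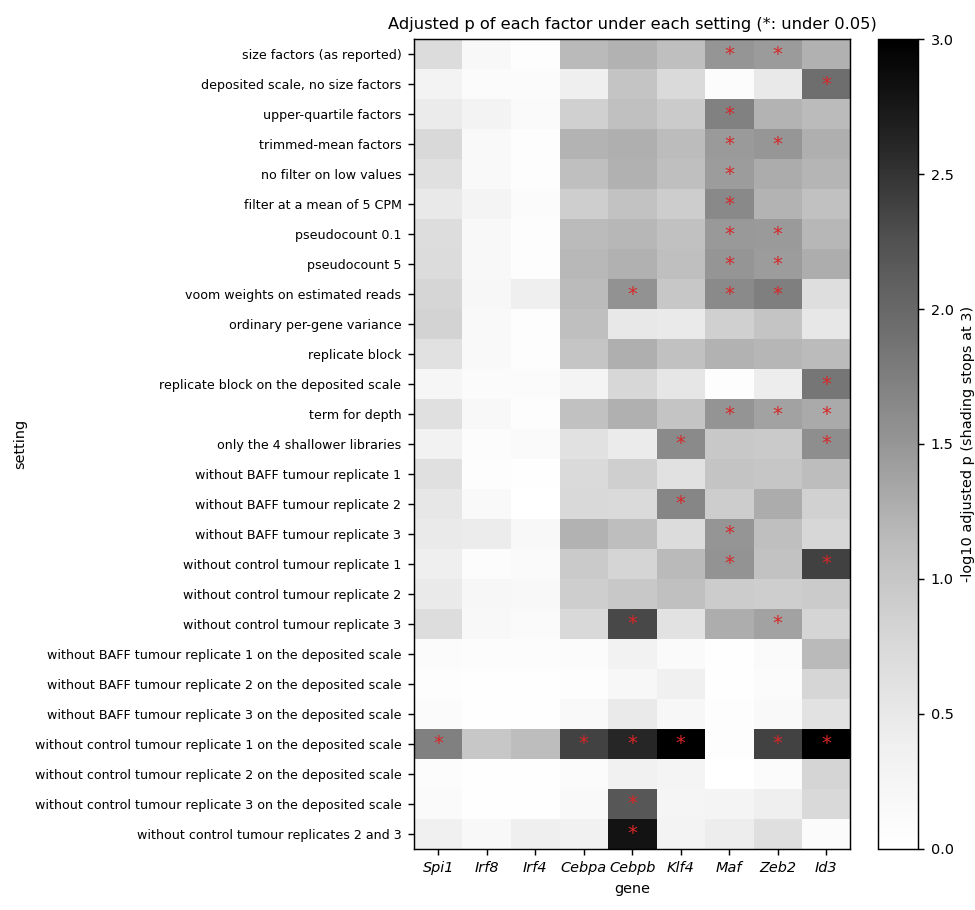
Adjusted p of the 9 factors (across) under each setting (down), shaded by -log10 of adjusted p, with a star where it was under 0.05. Maf was starred under 10 of the alternative settings and Zeb2 under 7, Irf8 and Irf4 under 0.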

How the data were processed

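Monocytes sorted from 3 BAFF tumours and 3 control tumours were profiled by RNA-seq with the TruSeq RNA v2 kit, per the labels' protocols. Partek, STAR 2.4.1d and Bowtie2 2.2.5 are listed, with no roles, in the submitters' processing notes. Genome build, annotation and counting rule were not given in the sources read. The authors deposited CPM per gene, a unit read from the values, since low values step by 1 amount shared by all genes of a library. In each library 85% to 86.3% of low values came within 0.02 reads of a whole number of steps, so reads were not recovered and no count model was used. Confidence intervals of log2 fold changes were built from the limma SE, so like the p-values they measure the spread between these libraries. Depths cover counting error only. The misspelt control column was taken as control tumour 2, whose title it fits. No pair of replicates was alike within sampling noise (smallest chi-square per degree of freedom 7.28).

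CPM was divided by median-of-ratios size factors (0.67 to 1.27), and log2(value + 1) was fitted by limma-trend (limma 3.58.1, R 4.3.3) over the 12824 genes averaging at least 1 CPM, without a replicate block. Fold changes of low genes are understated. The fit was tested on simulated data. The factors, lists and settings were chosen with earlier results of these data known. Named were the 9 factors, the 5 other factors per direction and 3 genes per target list with the smallest adjusted p, the 3 most abundant markers per list and the 3 genes most like each called factor. Promoters are from RefSeq (GRCm38.p6), and transcript lengths and overlaps from GENCODE M21. Alternatives were the deposited scale, other factors, filters, pseudocounts, variance models and thresholds, a block, a depth term, subsets of libraries and each library left out. One gene and the results that need it are not reported here.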

Additional observations from a re-analysis of the deposited data

How the results depend on the processing

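Counts of calls moved with the scale. After size factors 2192 genes, 2 of the 9 factors and 17 of the other factors were called, and on the deposited scale 681, 1 and 5. Over all genes, the count was 1367 with a filter at a mean of 5 CPM, 656 with ordinary per-gene variance, 947 with only the 4 shallower libraries and 1107 at an adjusted p under 0.01. Of the 9 factors, 1 was called with upper-quartile factors, with no filter and with a filter at 5 CPM, and 0 with ordinary variance and at an adjusted p under 0.01. There were 3 with voom weights, with Cebpb added (adjusted p = 0.0287), and 3 with a term for depth, with Id3 added (0.0488). With the 4 shallower libraries 2 were called, Klf4 (0.0239) and Id3 (0.0263) in place of Zeb2 and Maf. Of the other factors, 7 were called with ordinary variance and 11 at an adjusted p under 0.01. Leaving out 1 library gave 1349 to 1830 genes, 0 to 2 of the 9 and 12 to 15 of the other factors. On the deposited scale it gave 260, 219 and 170 genes without BAFF tumour 1, 2 and 3 and 5149, 319 and 1171 without control tumour 1, 2 and 3, with 0 to 6 of the 9 and 2 to 42 of the other factors, the highest without control tumour 1. Without control tumours 2 and 3, a setting chosen after seeing the data, 1100 genes, 1 of the 9 and 6 of the other factors were called.

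Libraries with the same replicate number did not deviate together (r = -0.05, 0.05 and -0.04), so the numbers were not taken as pairs. With the replicate number as a block 1940 genes, 0 of the 9 and 15 of the other factors were called, with adjusted p = 0.0593 for Maf and 0.0654 for Zeb2. The block on the deposited scale gave 608, 1 and 4.

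The log2 fold change of Irf8 turned positive on the deposited scale (0.17, also with the block), without BAFF tumour 1 (0.0298, with -0.16 as the lowest when 1 library was left out) and, on the deposited scale, without 1 library at a time in 5 fits of 6 (0.10, 0.13, 0.14, 0.29 and 0.44, but -0.0623 without control tumour 3). That of Irf4 turned positive on the deposited scale (0.17, also with the block), with the 4 shallower libraries (0.12), without BAFF tumour 1 (0.02) or control tumour 1 (0.0882, with -0.14 as the lowest when 1 library was left out) and, on the deposited scale, without 1 library at a time in 5 fits of 6 (0.0695, 0.091, 0.17, 0.25 and 0.52, but -0.078 without control tumour 3). Maf (0.0458) and Mitf (0.11) turned on the deposited scale without control tumour 1. The cause of these shifts was not tested. Depth limits Id3 and Irf4, which rest on 6 to 255 and 24 to 353 estimated reads per library.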
